A study of Mus musculus with 3 samples.

Results

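Organoids that had received protons were compared with unirradiated organoids of the same culture series, across genes and functions outside the interferon, MHC, immediate early and cell cycle groups. The members were the cell barcodes of the proton library and of the control library that had 500 or more detected genes and no more than 20% of transcripts from mitochondrially encoded (mt-) genes. That left 13956 proton cells and 13219 control cells, 27175 of the 42216 cells that passed in the whole series. Organoids are epithelial cultures that grow as small rounded tissues, here grown from submandibular salivary glands of C57BL/6 mice aged 8 to 12 weeks. The tissue came from 4 animals, and cells were not tied to animals. All groups grew embedded in Matrigel, and their medium held EGF, FGF2, dexamethasone, Y27632 and media conditioned with R-spondin1 or Wnt3a. The control group was not irradiated (0 Gy), the proton group received 7 Gy in the plateau of the proton beam on day 5, and both were collected on day 11. A photon group, given 7 Gy on the same day, is used only for values set beside those of the proton library. Living cells were sorted as negative for propidium iodide, and RNA was counted by 10x Genomics 3' single-cell sequencing as unique molecular identifiers (UMIs), in which each captured RNA molecule counts once.

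The submandibular gland makes saliva in acini and carries it through ducts, whose walls hold luminal cells and, towards the larger ducts, basal cells that can act as progenitors. In this kind of culture, duct-like progenitors proliferate under Wnt and growth factor signals. Ionising radiation breaks DNA, and protons deposit dense energy mainly at the end of their range, the plateau being the stretch before it. Surviving cells can carry lasting differences in cell cycle, secretion, metabolism and stress pathways.

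Each group is 1 library, so differences between them could not be checked against replicates or tested. All conditions were handled on the same day, per the labels. Summed UMIs of each library were scaled to equal totals and are given as CPM, the usual unit for counts after such scaling. Each ratio compares the proton with the control library, and the range after it is an exact 95% interval that covers counting error only, not the spread between cultures. The words higher and lower are used for genes that differed by 1.5-fold or more, with a mean of at least 5 CPM over both libraries. A summed level does not separate the share of cells that carry an RNA from the amount per cell, and these cannot be told apart from the sums.

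The control cells held 39514768 UMIs with a median of 2757 per cell, and the proton cells 36692939 with a median of 2223. The markers fitted an epithelial duct culture in both. Summed luminal duct markers stood at 7932 CPM in control and 8173 in proton, and basal duct markers at 6252 and 3932. Acinar markers summed to 63.1 and 51.1 CPM, and 2 of the 11 were at 0 in both libraries. Markers of fibroblasts, endothelium, immune cells, pericytes, neurons and red cells summed to at most 3.69 CPM each in either library, and none of these genes reached a mean of 5 CPM. In a joint clustering that left out the 4 gene groups named above, the libraries lay almost apart: 801 control cells (6.06%) sat in clusters made up mainly of proton cells, and 534 proton cells (3.83%) in clusters made up mainly of control cells. The libraries shared 61 barcodes, and leaving these out moved neither count of genes by more than 3. Depth, RNA content and the clusters moved with treatment, and their part in the results below was not tested except where a value is given.

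Of 10211 genes, 1448 (14.2%) were higher and 1517 (14.9%) lower in the proton library, and the median log2 ratio was 0.03. These shares are the background for the list counts below. Among the 5870 genes with a mean of at least 25 CPM, 633 (10.8%) were higher and 874 (14.9%) lower. Outside the interferon, MHC, immediate early and cell cycle groups, 9795 genes remained, with 1216 higher, 1478 lower and a median of 0.01. Differences of 4-fold or more were few there, 39 higher and 57 lower. The split depended on scaling: 48.8% of the calls were higher as reported, and 60.6% when library totals left out mitochondrial, ribosomal protein, interferon and MHC genes.

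**Figure D1:**
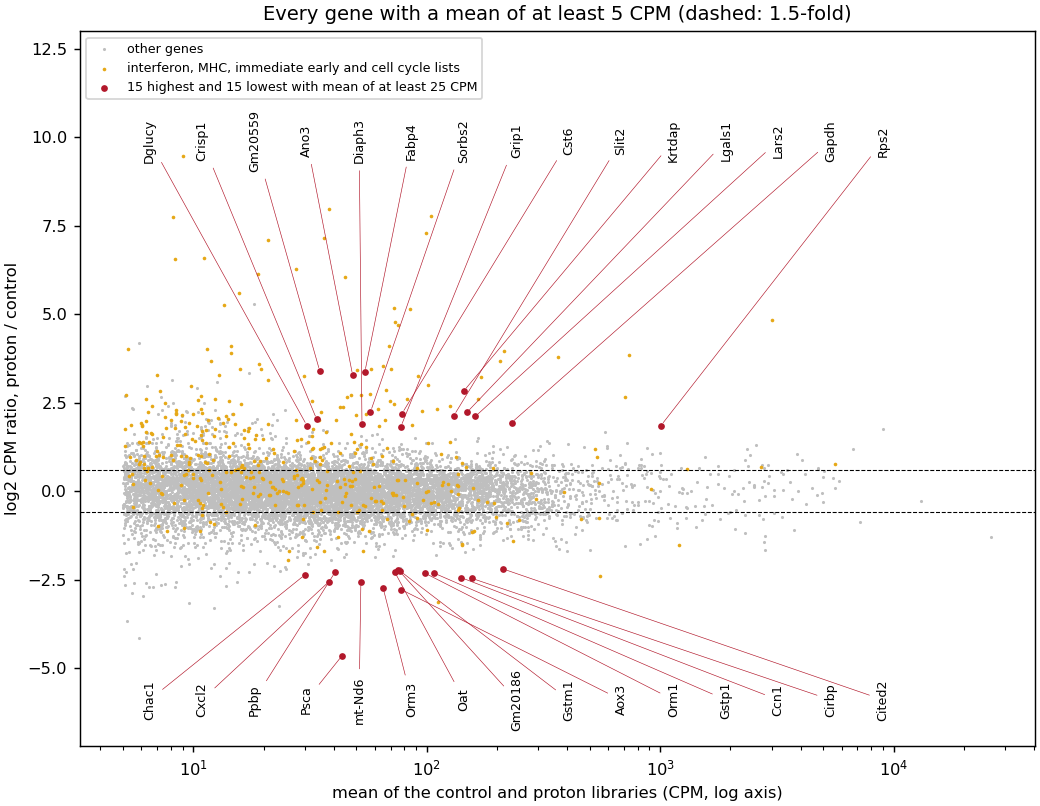
Log2 ratio of proton to control (vertical axis) against the mean of both libraries in CPM (horizontal log axis), 1 point per gene, with dashed lines at 1.5-fold. The 15 highest and 15 lowest genes outside the 4 groups are labelled, and Psca, from 83.5 to 3.32 CPM, lies lowest among them.

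The genes highest in proton cells were a mixed set of secreted, lipid-binding, axon guidance and cytoskeletal genes. Fabp4, a fatty acid carrier protein on chromosome 3 (10204088 to 10208576, GRCm38), was at 9.62 CPM in control against 99.96 in photon and 98.96 in proton, a ratio of 10.3 (9.26 to 11.5). Krtdap, a secreted protein of differentiating squamous epithelium, stood at 35.5, 175 and 253 CPM across control, photon and proton, a ratio of 7.13 (6.74 to 7.55). Ano3, a member of the anoctamin membrane protein family, was at 9.03, 42.4 and 87.3 CPM, a ratio of 9.66. In these 3 genes both irradiated libraries stood well above the control library. Lgals1, the secreted lectin galectin-1, was at 52.3 CPM in control against 217 in photon and 245 in proton, a ratio of 4.69 (4.47 to 4.92). Cst6, a secreted inhibitor of cysteine proteases, stood at 28.1, 110 and 129 CPM, and Crisp1, a cysteine-rich secretory protein, at 13.3, 45.4 and 54.3. Slit2, a secreted guidance cue for axons and migrating cells, spans 325 kb of chromosome 5 (47983138 to 48307733). Its level was 48.5 CPM in control against 137 in photon and 213 in proton, a ratio of 4.40 (4.18 to 4.62).

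Sorbs2, an adaptor at actin and adhesion sites, had a ratio of 4.72, Diaph3, a formin that nucleates actin, 3.72 and Grip1, a scaffold protein with PDZ domains, 3.52. Dglucy, a mitochondrial D-glutamate enzyme, had 3.62 and the non-coding Gm20559 had 10.5. Many of these sizes depended on the mixture of joint clusters. With it held equal, the log2 ratio of Ano3 was 1.18 in place of 3.27, that of Slit2 0.86 in place of 2.14, that of Lgals1 1.21 in place of 2.23 and that of Cst6 0.91 in place of 2.19. Values under that setting were 2.48 for Gm20559, 1.85 for Krtdap, 1.15 for Crisp1, 0.96 for Dglucy and 0.997 for Grip1, and those of Sorbs2 (-0.36) and Diaph3 (0.15) no longer passed as higher. Among cells of 1500 to 4000 UMIs the log2 ratios of Fabp4 (5.29), Krtdap (3.83), Crisp1 (2.69) and Sorbs2 (3.07) were larger. Of the 15 genes only Lars2 was within 1.5-fold of control in the photon library, and the others were higher there too. Lars2, the mitochondrial leucyl-tRNA synthetase, was at 60.7 CPM in control against 62.1 in photon and 262 in proton. Gm42418, a locus linked to ribosomal RNA that is described below, likewise stood near control in photon and above it in proton. Whether the UMIs of Lars2 come from the synthetase mRNA was not tested. Gapdh, the glycolytic enzyme, was at 95.7, 183 and 366 CPM, and Rps2, a small ribosomal subunit protein, at 437, 744 and 1579. Gapdh and Rps2 have many near-identical processed copies in the mouse genome, so how reads were divided among copies makes their levels uncertain.

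Cells differed in how widely these RNAs were found. With every cell thinned to 1000 UMIs, which left out 1690 control and 1219 proton cells, Krtdap was found in 1.97% (1.72 to 2.24) of control and 8.06% (7.60 to 8.55) of proton cells. Before thinning these shares were 3.59% and 11.4%. In the cluster with the fewest positive cells of each library the thinned share was 0% and 0.88%. Thinned shares with Slit2 RNA were 4.13% in control and 14.96% in proton cells (9.35% and 26.7% unthinned, lowest cluster 2.35% and 7.05%). Fabp4 was found in 0.31% and 3.41% of thinned cells (0.57% and 5.52% unthinned, lowest cluster 0% and 0.44%). All 3 RNAs were detected in a larger share of proton cells at equal depth. These are shares of cells with a UMI, which depend on depth, and do not give the share of cells that express the gene.

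The lowest genes held acute phase proteins, detoxifying enzymes, chemokines and regulators of transcription. Psca, a small surface protein of the Ly6 family on chromosome 15 (74714839 to 74717069), was at 83.5 CPM in control against 68.2 in photon and 3.32 in proton, a ratio of 0.040 (0.033 to 0.048). Proton stood apart from both other libraries here. It was detected in 0.55% (0.42 to 0.70) of control cells after thinning to 1000 UMIs and in 1.19% before, against 0.08% and 0.14% in proton, with a lowest cluster share of 0% in both. Of its control UMIs, 3198 came from the 2015 control cells of cluster 5, which was led by Psca itself and the squamous gene Sprr2d. Within that cluster the level was 375 CPM in control and 135 in the 152 proton cells. The log2 ratio of Psca was -4.65 in the whole libraries, -1.49 with the cluster mixture held equal, -1.88 among cells of 1500 to 4000 UMIs and -2.43 without the deepest 5% of cells.

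Aox3, an aldehyde oxidase, was at 136, 28.2 and 19.7 CPM across control, photon and proton. Orm1 was at 164, 44.7 and 32.8 CPM, and Orm3 at 113, 22.6 and 16.9, both acute phase plasma proteins of 1 gene family on chromosome 4. For these 3 genes both irradiated libraries lay below control in the whole libraries. With the cluster mixture held equal, the log2 ratio of Aox3 was -1.04 in place of -2.78, and those of Orm1 (-0.28) and Orm3 (-0.32) were within 1.5-fold. Gstp1, a glutathione transferase with a near-identical neighbour, was at 178, 108 and 35.9 CPM, and Gstm1, of another class of that enzyme family, at 126, 49.3 and 26.6. Oat, ornithine aminotransferase, was at 121, 83.0 and 24.8 CPM. Cirbp, an RNA-binding protein known for its induction by mild cold, was at 265, 156 and 47.9 CPM, and Cited2, a regulator of transcription through CBP and p300, at 350, 258 and 76.0. These 5 genes stood lower in proton than in photon. The chemokines Cxcl2 (65.2, 44.9 and 11.1 CPM) and Ppbp (67.2, 38.6 and 13.7) and the matricellular gene Ccn1 (237, 134 and 43.5) followed the same order. With the cluster mixture held equal, the log2 ratio of Ccn1 was -0.83 in place of -2.44 and that of Cited2 -1.24 in place of -2.20, while Cxcl2 (-0.28) and Ppbp (0.67) no longer passed as lower. Thinned to 1000 UMIs, 23.8% (23.03 to 24.6) of control and 4.91% (4.55 to 5.30) of proton cells had Cirbp RNA, with 48.3% and 11.5% before thinning and lowest cluster shares of 5.53% and 4.05%.

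The differences between proton and control went with gene structure. Genes were ordered by span, the distance from start to end with introns, and divided into deciles of 1021 genes. In the decile of shortest span (up to 4.96 kb) 14.2% of genes were higher and 28.8% lower in proton, with a median log2 ratio of -0.17. In the decile of longest span (over 131 kb) 30.8% were higher and 2.94% lower, their median being 0.37. Set beside this, the median of photon against the same control library was 0.13 in the shortest and -0.33 in the longest decile. Genes higher in the proton library had a median span of 37.7 kb and genes lower 13.5 kb. Across 10210 genes Spearman's correlation between span and log2 ratio was 0.30 for proton and -0.35 for photon. It is given as a description only, since all genes share the same 2 libraries and their depth.

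Mature transcript length gave another shape. It was taken from the principal transcript of the GENCODE annotation, which 9877 of the genes had. Among 95 genes with a mature transcript of at most 0.5 kb, 35.8% were higher and 6.32% lower in proton, with a median log2 ratio of 0.44. Among 1036 genes of 1 to 1.5 kb only 8.01% were higher and 29.3% lower, their median being -0.31. Above 6 kb the median was 0.26, with 20.1% of 1149 genes higher and 4.79% lower. Medians were below 0 in the 5 classes from 0.5 to 3 kb, with -0.03 at 2 to 3 kb, and above 0 at 3 to 4 kb (0.11) and 4 to 6 kb (0.20). In the photon library the median was 0.29 in the shortest class and -0.34 in the longest. Without the ribosomal protein genes and the 4 excluded groups, the proton medians for the same 3 classes were 0.36, -0.34 and 0.26. Among 163 genes whose principal transcript has 1 exon, 44.8% were lower in proton (median -0.50), and among 1373 genes with more than 20 exons 3.71% (median 0.27). With the mixture of joint clusters held equal, the medians were -0.13 in the shortest and 0.20 in the longest span decile, and 0.47, -0.28 and 0.16 in the same 3 classes of mature length.

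**Figure D2:**
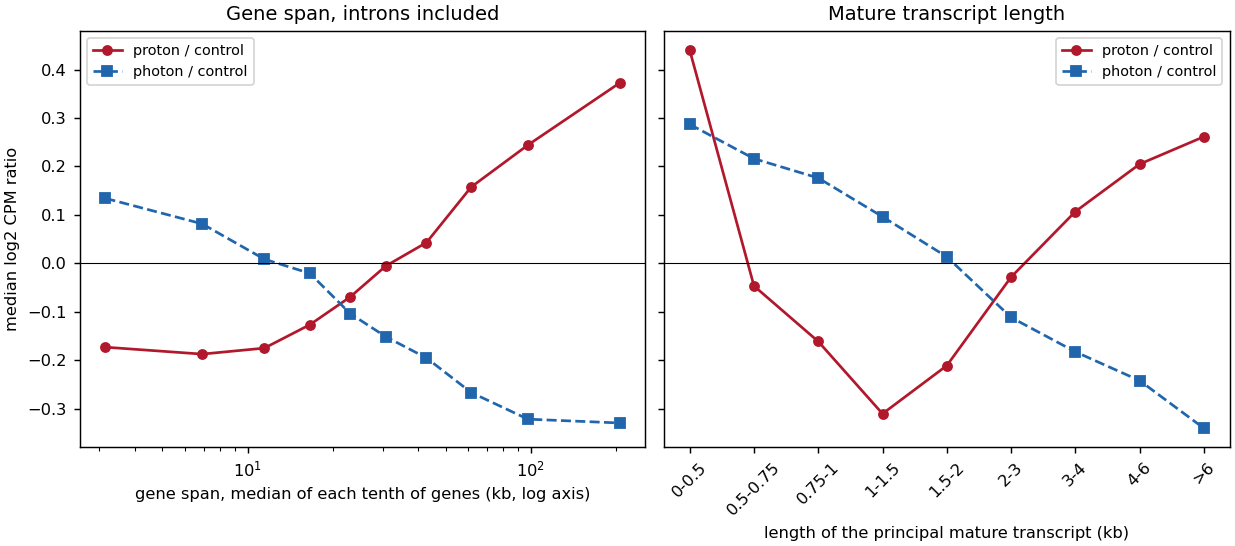
Median log2 ratio to control of the proton library (circles) and of the photon library (squares) by gene span (left, deciles on a log axis, kb) and by length of the mature transcript (right, classes in kb). Proton medians run from -0.17 to 0.37 with span and from 0.44 through -0.31 to 0.26 with mature length, while photon medians run from 0.13 to -0.33 and from 0.29 to -0.34.

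Ribosomal protein genes and translation factors differed in direction. Ribosomes are built of a small and a large subunit, each of ribosomal RNA and many small proteins whose mRNAs are short. Of 31 small subunit proteins, 10 were higher and 1 lower in proton, and of 46 large subunit proteins 15 were higher and 2 lower. Their median log2 ratios were 0.44 and 0.27, beside 0.21 for each in photon. Rps29 was at 277 CPM in control against 410 in photon and 884 in proton, a ratio of 3.19 (3.12 to 3.26). Rpl41 was at 1477, 2290 and 3660 CPM and Rpl39 at 1431, 1698 and 3296, both proteins of the large subunit with some of the smallest mRNAs of the set. Rpl9 (381 to 161 CPM from control to proton), Rpl5 (1248 to 700) and Rps9 (2828 to 1781) were the lower members. Rpl5 also binds the p53 regulator Mdm2 outside the ribosome. By mature length, 6 of the 8 ribosomal protein genes of at most 0.45 kb were higher, but 1 of the 17 genes over 1 kb. Several of these genes have processed copies, which makes their levels uncertain.

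Factors that start and extend translation leaned the other way, with 2 of 36 higher, 11 lower and a median of -0.28, beside 0.08 in photon. Eif1, which guards the choice of start codon, was at 1589 CPM in control against 1478 in photon and 775 in proton, and Eef1a1, which brings aminoacyl-tRNA to the ribosome, at 3747, 3644 and 2422. In both genes photon lay near control. Tpt1 was at 5486 and 4446 CPM in control and proton, within 1.5-fold. Of 35 ribosome biogenesis genes 2 were higher (5.71%) and 6 lower (17.1%), beside 14.2% and 14.9% of all genes. Their median was -0.12, and Mybbp1a, with a ratio of 1.54, was among the higher. Among the lower were the nucleolar proteins Npm1 (1187, 1616 and 611 CPM across control, photon and proton) and Ncl (585, 676 and 351). The assembly factors Rrs1 (126, 93.6 and 27.8) and Rrp1 (241, 251 and 98.4) were lower too. Gm42418, a locus known in mouse libraries for overlapping a ribosomal RNA repeat, was at 4148, 3971 and 13921 CPM, a ratio of 3.36 (3.34 to 3.37). Of 78 mitochondrial ribosomal proteins 3 were higher (3.85%) and 8 lower (10.3%), and the highest ratios were those of Mrpl52 (1.82) and Mrpl54 (1.72).

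RNA encoded in the mitochondrial genome was lower in the proton library. Mitochondria make ATP by the respiratory chain, whose subunits are encoded partly in their own small genome and mostly in the nucleus. The sum of the 13 mitochondrially encoded genes was 32860 CPM in control against 22343 in photon and 17991 in proton. The filter on cells used this share as its upper limit. In proton 7 of the 13 were lower and 1 was higher, with a median log2 ratio of -0.68. The level of mt-Cytb, of complex III, was 4293, 2792 and 1356 CPM, and that of mt-Co1, of complex IV, 9300, 6138 and 5041. The lowest ratio was that of mt-Nd6, the gene carried on the other strand, at 89.4, 53.5 and 15.1 CPM, a ratio of 0.169 (0.154 to 0.185). Against this, mt-Atp8 was at 35.4, 28.9 and 67.4 CPM, and mt-Nd3 at 72.4 in control and 74.1 in proton.

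Nuclear-encoded parts of the respiratory chain had calls in both directions. Of 38 complex I genes 3 were higher and 3 lower (7.89% each). In complexes II to IV it was 4 and 4 of 25 (16% each), and in ATP synthase 3 and 2 of 18 (16.7% and 11.1%). Over all genes 14.2% were higher and 14.9% lower, so only complex I had few calls. Small subunits were among the higher members. Ndufa3 of complex I was at 58.8 CPM in control against 85.6 in photon and 152 in proton, a ratio of 2.58 (2.46 to 2.71). Atp5e, the small epsilon subunit of ATP synthase, was at 347, 450 and 840 CPM, and Cox6a1 of complex IV at 132, 170 and 236. Lower members included the iron-sulphur subunit Uqcrfs1 (192, 193 and 105 CPM) and Ndufv1 of complex I (61.3, 64.0 and 36.6).

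Of 19 enzymes of the tricarboxylic acid cycle 9 were lower and none higher, and the median was -0.53, beside -0.08 in photon. Pdhb, of the pyruvate dehydrogenase complex that feeds the cycle, was at 47.9, 37.4 and 19.8 CPM across control, photon and proton, and Mdh1, a malate dehydrogenase, at 170, 180 and 76.4. Cs and Suclg2, the citrate synthase and a succinate ligase subunit, had ratios of 1.34 and 1.37, within 1.5-fold. Fatty acid oxidation gave 7 lower and none higher of 19, with a median of -0.49. Its lowest members were Acadm (92.6, 61.3 and 31.8 CPM), which starts the breakdown of medium-chain fatty acids, and Echs1 (138, 102 and 59.9). Acadl was at 228 CPM in control against 641 in photon and 278 in proton. At the same time 9 of 27 fatty acid synthesis and storage genes were higher and 1 lower, the median being 0.41, beside 0.03 in photon. That proton median was 0.14 with the cluster mixture held equal. Fasn, the fatty acid synthase, was at 19.9, 18.3 and 37.6 CPM, and Fabp5, a fatty acid carrier, at 1657, 3632 and 2490. Of 21 cholesterol synthesis genes 6 were higher and 1 lower in proton (median 0.30), beside 12 and 0 in photon (median 0.74). The proton median of that list was 0.08 with the cluster mixture held equal and 0.72 among cells of 1500 to 4000 UMIs. Fdps, which makes farnesyl diphosphate, was at 52.5, 185 and 111 CPM. Glycolysis gave 2 of 20 higher and 2 lower. Pkm and Ldha, the most abundant, had ratios of 1.18 and 1.22, and Ldhb, the other lactate dehydrogenase subunit, was at 91.0, 58.4 and 30.7 CPM. Taldo1, transaldolase of the pentose phosphate pathway, was at 496, 387 and 200 CPM.

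**Figure D3:**
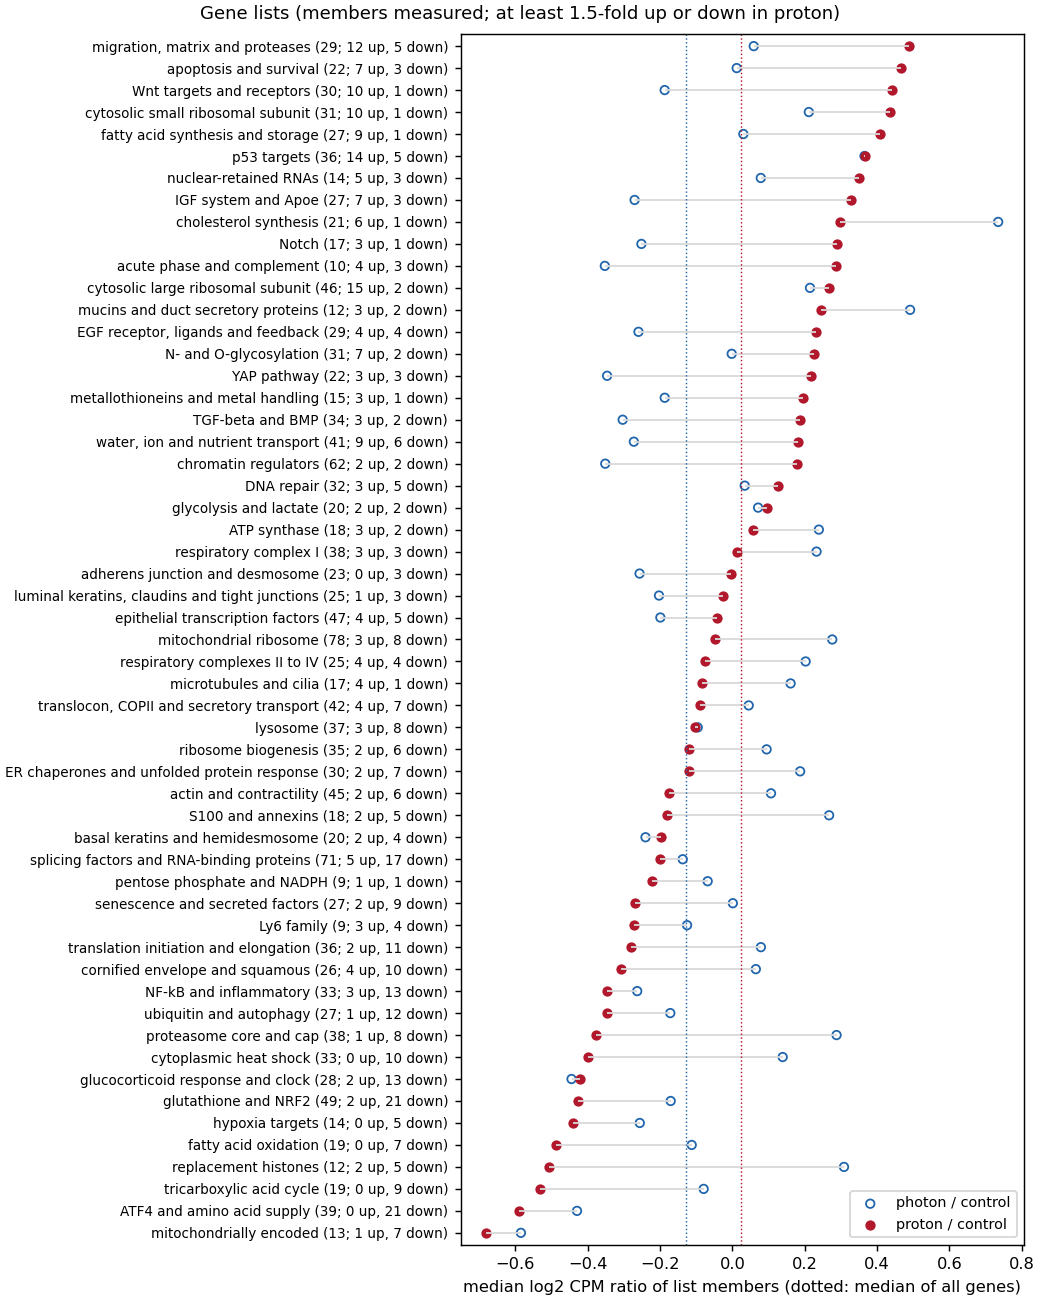
Median log2 ratio to control of each gene list in the proton library (filled) and photon library (open), with the number of members measured and the numbers at least 1.5-fold up or down in proton, and dotted lines at the medians of all genes. Mitochondrially encoded genes (-0.68) and the ATF4 list (-0.59) lie lowest for proton, and migration and matrix genes (0.49) highest.

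The ATF4 and amino acid supply list had no gene above the threshold. ATF4 is a transcription factor made when amino acids run short or other stresses slow translation, and it turns on amino acid transporters, synthetic enzymes and tRNA synthetases. Of 39 genes 21 were lower (53.8%) and none higher, with a median of -0.59, beside 10 lower, 2 higher and -0.43 in photon. The median lay between -0.67 and -0.41 under all 13 alternative settings. Atf4 itself was at 174 CPM in control against 160 in photon and 101 in proton. Chac1, an ATF4 target that breaks down glutathione, was at 50.4, 22.5 and 9.81 CPM, a ratio of 0.195 (0.173 to 0.218). Nupr1, a small stress-induced chromatin protein, was at 1267, 1427 and 497 CPM. Slc7a11, the cystine importer, was at 746, 305 and 441 CPM, so that photon was the lowest library for this gene. Slc1a4 (1.16) and Psat1 (1.31), a neutral amino acid transporter and an enzyme of serine synthesis, were the highest of the abundant members and within 1.5-fold.

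The motif TTGCATCA, a composite element of the kind that ATF4 and C/EBP partners bind, was looked for on both strands in promoters of RefSeq (GRCm38.p6), 250 bases before to 50 after each start. It was in 0.895% of 32851 promoters. Of the 39 list members 31 were matched by symbol, and 10 of these held the motif. Of those 10, 7 were lower in proton, and of the 21 without it 10 were. The windows are shown because they carry the same 8 letters (in capitals) in genes that differed in response: 4 members that were lower and 1 whose level was close to control. They are 5′ to 3′ on the strand that reads the motif.
Chac1: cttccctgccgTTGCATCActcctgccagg
Nupr1: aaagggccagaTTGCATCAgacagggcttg
Tars: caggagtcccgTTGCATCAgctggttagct
Slc7a11: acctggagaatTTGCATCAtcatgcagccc
Iars: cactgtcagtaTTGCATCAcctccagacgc
The Chac1 window is chr2:119351038-119351067 on the plus strand, with its motif at position -193 from the annotated start, and that of Nupr1 is chr7:126625562-126625591 on the minus strand, at -110. Those of Tars (chr15:11399655-11399684, minus), Slc7a11 (chr3:50443642-50443671, minus) and Iars (chr13:49682126-49682155, plus) have it at -15, -47 and 7. The tRNA synthetase genes differed from each other. Tars, for threonine, was at 107, 113 and 55.9 CPM, while Iars, for isoleucine, was at 55.4, 47.3 and 56.2. A match is only a match of letters, and binding was not measured.

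Glutathione metabolism and NRF2 targets, which defend against oxidants and reactive compounds, gave 21 lower and 2 higher of 49, with a median of -0.43, beside -0.17 in photon. Hmox1, heme oxygenase, was at 67.0 CPM in control against 53.9 in photon and 24.5 in proton. Ferritin was divided: the heavy chain Fth1 was at 14313, 10700 and 11900 CPM, within 1.5-fold, and the light chain Ftl1 at 961, 921 and 1500. The exporter Abcc4 was the highest member, at 26.9, 26.8 and 46.4 CPM.

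Heat shock and proteasome genes had medians below 0 in the proton library and above 0 in the photon library. With each ratio centred on genes of like span, the proton medians were -0.25 for heat shock and -0.24 for proteasome genes. The decile of genes spanning 9.08 to 13.9 kb, which holds the median span of both lists, had medians of -0.17 in proton and 0.01 in photon. Of 33 cytoplasmic heat shock genes 10 were lower and none higher in proton, with a median of -0.40, beside 0.14 in photon. Hsp90ab1, an abundant chaperone, was at 3212 CPM in control against 4053 in photon and 1407 in proton, a ratio of 0.438 (0.434 to 0.443). Hspb1, a small heat shock protein, was at 1781, 932 and 617 CPM, and Ahsa1, which stimulates HSP90, at 49.0, 51.9 and 18.3. The proteasome, which degrades ubiquitin-tagged proteins, had 8 lower (21.1%) and 1 higher (2.63%) of 38. Its median was -0.38, beside 0.29 in photon. Psmd7 of its cap was at 189, 220 and 90.5 CPM, Psmb1 of its core at 412, 483 and 254, and Psmd14, the enzyme that removes ubiquitin, at 127, 157 and 198. Of 27 ubiquitin and autophagy genes 12 were lower and 1 higher (median -0.35). The polyubiquitin gene Ubb was at 1348, 1502 and 561 CPM. Ctsl, a lysosomal protease, was at 1206, 1340 and 430 CPM, and Ctsd, another, at 471, 575 and 723. The lysosome list had 3 higher (8.11%) and 8 lower (21.6%) of 37.

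In the endoplasmic reticulum, where secreted proteins fold, 7 of 30 chaperone and stress response genes were lower (23.3%) and 2 higher (6.67%). Herpud1 and Ppp1r15a, genes of the stress response there, were at 240, 120 and 76.4 and at 81.6, 77.3 and 25.5 CPM across control, photon and proton. Hspa5, the main chaperone, was at 490, 661 and 303 CPM, while Calr, a chaperone for glycoproteins, was at 151, 266 and 198. Transport to and from the reticulum gave 4 higher (9.52%) and 7 lower (16.7%) of 42. Sec61g, the small subunit of the channel through which proteins enter, was at 188, 325 and 479 CPM, a ratio of 2.56 (2.49 to 2.63), and Sec61a1, its large subunit, at 31.5, 32.4 and 58.1. Srp9 of the signal recognition particle was at 222, 240 and 108 CPM. Of 31 glycosylation genes 7 were higher and 2 lower, led by Mgat5, which branches N-glycans, at 61.5, 70.4 and 118 CPM, and Man1a, which trims them, at 93.9, 117 and 180.

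Epithelial identity genes moved within families. Basal cells anchor to the basement membrane by hemidesmosomes and carry the keratins Krt14, Krt15 and Krt17. Krt15 was at 757 CPM in control against 712 in photon and 240 in proton, a ratio of 0.317 (0.310 to 0.325). Krt17 was at 1896, 1992 and 947 CPM, and Krt14 at 1536, 2100 and 816. Krt5, a further keratin among the basal duct markers, was within 1.5-fold. Krt14, Krt15 and Krt17 were lowest in the proton library, but the laminin receptor subunits Itgb4 (177, 169 and 300 CPM) and Itga3 (55.6, 74.9 and 143) were highest there. Of the 20 basal and hemidesmosome genes 4 were lower (20%) and 2 higher (10%), beside 14.9% and 14.2% of all genes. Luminal keratins and tight junction genes gave 1 higher (4%) and 3 lower (12%) of 25. Krt8 was at 223, 435 and 367 CPM, Krt7 at 993, 1650 and 1002, and the adhesion molecule Epcam at 1204, 1422 and 686. Of 23 adherens junction and desmosome genes none was higher and 3 were lower.

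Squamous and cornified envelope genes, which mark stratified epithelium, gave 10 lower and 4 higher of 26, with a median of -0.31 in proton and 0.06 in photon. The proton median was 0.11 with the cluster mixture held equal, and also 0.11 among cells of 1500 to 4000 UMIs, so its direction depended on which cells were compared. Ly6d, a surface protein, was at 3989, 2533 and 1647 CPM, and Anxa1, a phospholipid-binding annexin, at 2817, 2388 and 1349. Krtdap and Serpinb2 (43.9, 83.1 and 111 CPM) were the higher members. Among calcium-binding S100 proteins and annexins, Anxa5 (316, 309 and 126 CPM) and Anxa8 (167, 111 and 60.9) were low, while S100a6 was at 4072, 8905 and 9377, a ratio of 2.30 (2.29 to 2.32). In the Ly6 family 3 of 9 were higher and 4 lower. Ly6a was at 2074, 5525 and 3316 CPM and Ly6c1 at 112, 261 and 181, whereas Psca was the lowest gene named above. Whether reads were shared among relatives in this family was not tested.

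Among secreted duct proteins, Wfdc2, a protease inhibitor, was at 5461, 6302 and 5803 CPM, within 1.5-fold. Its relative Wfdc18 was at 282, 806 and 665 CPM, a ratio of 2.36. Lcn2, an iron-siderophore carrier, was at 2506, 1732 and 1732 CPM, and Cst3, a protease inhibitor, at 339, 239 and 167. Of the 12 genes of this list that passed the filter, out of 45, 3 were higher and 2 lower. Complement C3 was at 51.3, 41.8 and 91.6 CPM and Cp, the copper carrier ceruloplasmin, at 1643, 1234 and 1879, unlike the orosomucoids Orm1 and Orm3 of the same acute phase list.

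Transport of water and salts, which makes saliva, gave 9 higher and 6 lower of 41. Slc12a2, the cotransporter that loads sodium, potassium and chloride into cells, was at 46.5 CPM in control against 73.1 in photon and 132 in proton, a ratio of 2.84 (2.69 to 2.998). Slc4a4, a bicarbonate importer, was at 94.2, 91.3 and 153 CPM. The sodium pump's beta subunit Atp1b1 was at 613, 299 and 189 CPM, a ratio of 0.308. Aqp3, a water and glycerol channel, was at 41.1, 11.5 and 8.94 CPM.

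Among signalling lists, the share of higher genes was 33.3% for Wnt and 25.9% for IGF, beside 14.2% of all genes. It was 17.6% for Notch, 13.8% for EGF receptor, 13.6% for YAP and 8.82% for TGF-beta, near or below that of all genes. In the Wnt list, a pathway driven here by the medium, 10 of 30 were higher and 1 lower, and the median was 0.44, beside -0.19 in photon. The proton median of the Wnt list was 0.16 with the cluster mixture held equal. Ccnd2, a cyclin, was at 179, 389 and 433 CPM, and Cd44, a hyaluronan receptor, at 185, 277 and 414. The lower gene was Myc, at 108, 67.7 and 60.3 CPM. In the Notch list, a pathway of cell contact, 3 of 17 were higher and 1 lower, with the ligand Jag1 at 86.0, 88.7 and 142 CPM and the coactivator Maml2 at 256, 215 and 429. In the YAP list, which responds to cell shape, Yap1 itself was at 55.5, 50.4 and 110 CPM and the receptor Axl at 33.8, 39.0 and 72.8. The classical YAP targets Ccn1 (ratio 0.184) and Ccn2 (188, 200 and 108 CPM) stood below control. In the TGF-beta and BMP list Smad3, a signal carrier, was at 41.0, 37.0 and 73.3 CPM and Ltbp1, which stores the ligand in matrix, at 176, 215 and 349, while the BMP target genes Id3 (183, 110 and 66.9) and Id1 (154, 146 and 86.9) were lower. EGF receptor signalling gave 4 of 29 higher and 4 lower, with Egfr at 303, 216 and 284 CPM. Its feedback inhibitors Errfi1 (559, 233 and 181 CPM) and Dusp5 (38.9, 24.6 and 16.02) were low, and the ligand Nrg1 was at 94.0, 141 and 177. In the IGF and AKT list 7 of 27 were higher and 3 lower. Its median was 0.33, and 0.07 with each ratio centred on genes of like span. Irs2, an adaptor of the insulin receptor, was at 77.8, 48.2 and 43.3 CPM.

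Targets of p53, the factor activated by DNA damage, gave 14 higher (38.9%) and 5 lower (13.9%) of 36. Their median was 0.37 in proton and 0.37 in photon. Zmat3, an RNA-binding target, was at 29.4, 42.6 and 73.3 CPM, and Eda2r, a receptor of the TNF family, at 39.9, 61.4 and 90.04. The lower members were led by Btg2 (210, 175 and 74.5 CPM) and Plk2 (412, 320 and 157). In the apoptosis list 7 of 22 were higher and 3 lower, and the median was 0.47, beside 0.01 in photon. Apaf1, the core of the apoptosome, was at 17.2, 21.7 and 43.9 CPM, the survival gene Bcl2 at 18.9, 18.4 and 36.7, and the short-lived survival protein Mcl1 at 318, 312 and 179. Genes that favour death and genes that favour survival were both among the higher members.

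Of 28 glucocorticoid response and clock genes 13 were lower, 13 within 1.5-fold and 2 higher, in a medium that held dexamethasone for every group. The median was -0.42 in proton and -0.44 in photon. With the cluster mixture held equal, the proton median was -0.14. Hlf, a clock output factor, was at 42.7, 12.5 and 13.3 CPM, and Dusp1, a phosphatase, at 40.2, 36.2 and 10.5. The clock receptor gene Rora was at 51.8, 52.7 and 97.0 CPM. NF-kB and inflammatory genes gave 13 lower (39.4%) and 3 higher (9.09%) of 33. The list median was -0.35, and -0.07 among cells of 1500 to 4000 UMIs. Nfkbia, the inhibitor that NF-kB itself induces, was at 344, 312 and 164 CPM. The cytokines Csf1 (17.8, 22.3 and 33.0 CPM) and Il34 (26.6, 34.9 and 53.1), both ligands of the macrophage receptor Csf1r, were higher.

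Adhesion, matrix and migration genes gave 12 higher (41.4%) and 5 lower (17.2%) of 29, with a median of 0.49, beside 0.06 in photon. The median was 0.25 with each ratio centred on genes of like span, and 0.02 with the cluster mixture held equal. Itga3 (2.57) and Serpinb2 (2.53) had the highest ratios among members with a mean of at least 25 CPM, and Snai2, a transcription factor of basal and migrating epithelium (98.5, 68.6 and 50.7 CPM), and Sparc, a matrix protein (103, 107 and 60.1), were lower. The cytoskeleton differed by gene. Flna, which crosslinks actin, was at 51.1, 62.7 and 106 CPM and Tuba1b, an alpha tubulin with near-identical relatives, at 26.98, 55.8 and 71.1. Actb was at 1220, 1456 and 1275 CPM, Tpm2, a tropomyosin, at 165, 223 and 91.1, and the motor gene Kif5b at 626, 440 and 342.

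Of 71 splicing factors and RNA-binding proteins 17 were lower and 5 higher (median -0.20), among the lower Srsf5 (537, 417 and 182 CPM) and Srrm2 (838, 652 and 472). Ptbp1, a repressor of exons, was at 31.9, 47.1 and 62.2 CPM and Snrpf, a core protein of spliceosomal particles, at 87.3, 153 and 167. H3f3b, which encodes the replacement histone H3.3 used outside DNA replication, was at 4061 CPM in control against 4376 in photon and 1487 in proton, a ratio of 0.366 (0.363 to 0.370). Its RNA was in 94.0% (93.5 to 94.4) of control and 72.4% (71.6 to 73.2) of proton cells thinned to 1000 UMIs, with 91.7% and 87.5% before thinning and lowest cluster shares of 60.9% and 67.3%. H2afz was at 684, 904 and 406 CPM, and Slbp, which binds the stem-loop of histone mRNA, at 50.9, 58.4 and 16.9. The replacement histone list, which also held Slbp, had 5 lower (41.7%) and 2 higher (16.7%) of 12. Its higher members were Hist1h2bc (ratio 4.44) and H2afj (1.67). The list median was -0.51 in proton and 0.31 in photon, and -0.13 in proton at a minimum mean of 1 CPM. Malat1, a nuclear RNA, was at 37160, 22785 and 15188 CPM, and Zfas1, a host gene of small nucleolar RNAs, at 54.2, 115 and 118.

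Within joint clusters, compared where each library had at least 100 cells, the named genes divided into those that differed in every cluster and those that did not. This comparison is uneven, since clusters 1, 2 and 3 held 168, 131 and 169 control cells and clusters 0 and 5 held 257 and 152 proton cells. The 30 genes were chosen for their ratios in these same UMIs, and no such count was made over all genes. In the whole libraries the counting interval excluded 1 for 8350 of 10211 genes. In all 6 clusters the interval lay on the same side of 1 for 13 of the 30 genes. Among the higher ones these were Gm20559, Slit2, Lars2, Gapdh, Rps2 and Grip1, and among the lower mt-Nd6, Cirbp, Gstp1, Oat, Gstm1, Gm20186 and Cited2. Cirbp ratios ranged from 0.182 to 0.291, mt-Nd6 from 0.0844 to 0.306, Rps2 from 2.91 to 5.54 and Lars2 from 2.82 to 5.26. By contrast Sorbs2 ranged from 0.635 to 6.00 and its log2 ratio with the mixture held equal was -0.36, and Ppbp had 0.67 there after -2.29 in the whole libraries. Under the same setting the log2 ratios of Orm1 (-0.28), Orm3 (-0.32), Cxcl2 (-0.28), Hlf (-0.23), Diaph3 (0.15), Wfdc18 (0.07), Krt8 (0.07), Myc (-0.01), Slc7a11 (-0.13) and Il34 (-0.25) were within 1.5-fold. Calls for Apaf1, Bcl2, Cst3, Dusp5, Eda2r, Errfi1, Fdps, Flna, Irs2, Ly6d, Man1a, Psmb1, Slc12a2, Snai2, Sparc, Nrg1, Maml2, Jag1, Psmd14, Slc4a4, Abcc4, Ctsd, Fabp5 and mt-Atp8 were lost there too. Centring by gene span ended those of Eef1a1, H2afz, Hspa5, Ltbp1, Mgat5, Ndufv1, Rora and Rps9, and comparing cells of 1500 to 4000 UMIs that of Ftl1. Genes that set a cluster apart, as Sorbs2, Orm3, Psca, Cirbp, Gstm1 and Oat do, are compared there within cells chosen partly by their level.

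**Figure D4:**
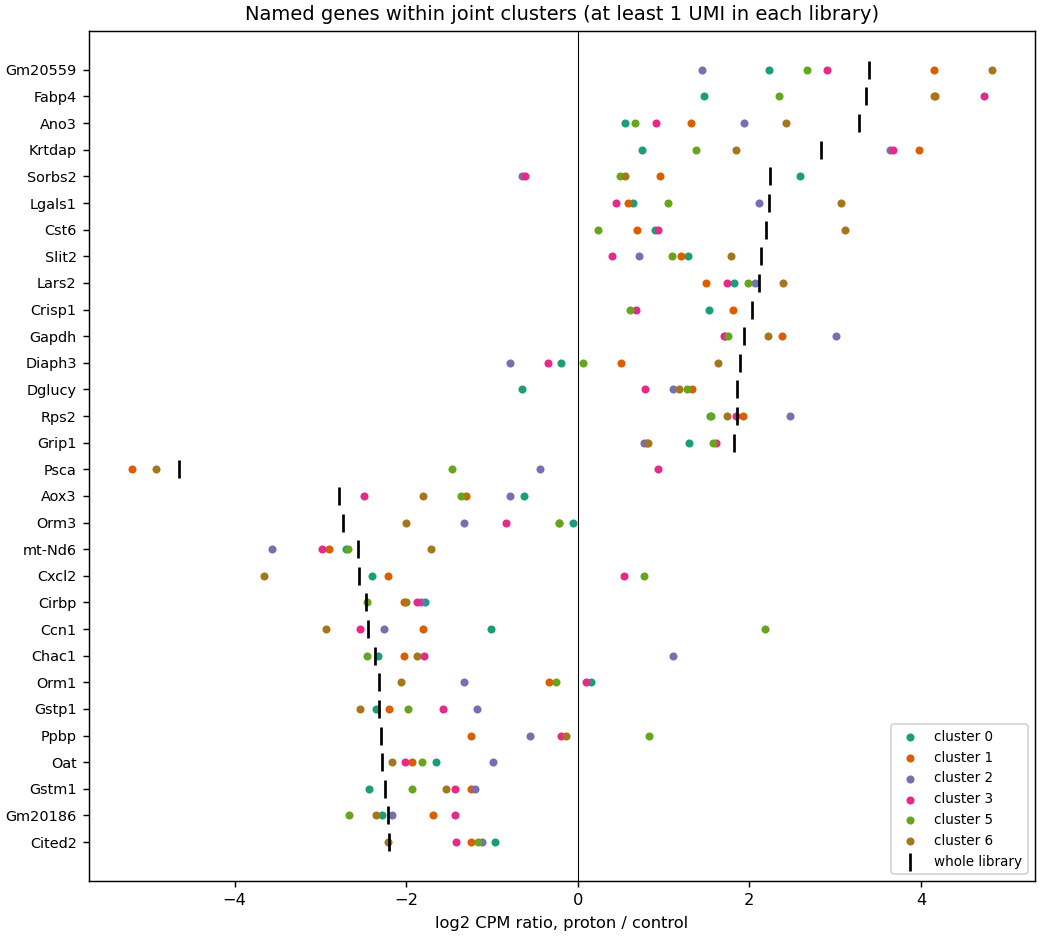
Log2 ratio of proton to control of the 30 named genes within each of 6 joint clusters (coloured points) and in the whole libraries (black bars), shown where both libraries had at least 1 UMI. Points of Cirbp, Rps2 and Lars2 lie close together on 1 side of 0, and those of Sorbs2, Ppbp and Diaph3 lie on both sides.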

How the data were processed

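The authors deposited 1 matrix of UMI counts per gene and barcode for each library, whole numbers not normalized, with barcodes of at least 500 UMIs. Cell Ranger 7.0.1 and mm10 are named per the submitters' processing notes, and Cell Ranger 7.0.0 per the file headers. The sources used here do not state strand, intron counting or annotation. Gene positions and lengths came from GENCODE M21, matched by Ensembl ID. Barcodes with at least 500 genes and at most 20% mt- UMIs were kept, and no doublets were removed.

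UMIs were summed per library and scaled to CPM. Intervals are exact conditional binomial (Clopper-Pearson) at 95%. A call was 1.5-fold at a mean of at least 5 CPM. Named genes were the 15 highest and 15 lowest ratios at a mean of at least 25 CPM outside the 4 excluded groups, and in each list the 2 highest and 2 lowest ratios and the 2 highest levels at that mean. Atf4, Hmox1 and other members named beside them were chosen after their values were seen. The members and gene lists were chosen with earlier results of these data known. Cells were clustered jointly with the Leiden method without the excluded groups. Shares of cells were taken after thinning each cell to 1000 UMIs. With 1 library per group no test across samples was made. The ratio calculation was tested on simulated data. Python 3.11.15, NumPy 2.4.6, pandas 2.3.3, SciPy 1.17.1, scikit-learn 1.9.0, igraph 0.11.9, leidenalg 0.10.2 and matplotlib 3.10.9 were used.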

Additional observations from a re-analysis of the deposited data

Results flagged for a closer look

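Of the 5870 genes with a mean of at least 25 CPM, some lay beyond 1.5-fold of control in opposite directions in the proton and photon libraries. Both ratios share 1 control library, and the difference between the radiation types was not tested. With the immediate early gene Fos counted, median spans were 74.7 kb for those higher in proton and 6.97 kb for those lower. Over all genes, the correlation of span with log2 ratio was 0.30 for proton and -0.35 for photon. Lower in proton and higher in photon were Pdia6, a protein disulphide isomerase (ratios 0.453 in proton and 1.60 in photon), Rbm3, an RNA-binding protein known for induction by cold (0.547 and 1.51), and Gtf2f1, a general transcription factor subunit (0.563 and 1.51). The same held for Sap30, of a histone deacetylase complex (0.607 and 1.52), Psmc5, a proteasome ATPase (0.653 and 1.56), and Ywhah, a 14-3-3 protein (0.659 and 1.55). Higher in proton and lower in photon were Epha2, an ephrin receptor (1.54 and 0.663), Bnc2, a zinc finger protein (1.55 and 0.590), Fat2, an atypical cadherin (1.59 and 0.626), and Cpeb4, which binds mRNA tails (1.60 and 0.625).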

How the results depend on the processing

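Between 633 and 2152 genes were higher and between 874 and 2259 lower over the 13 alternatives, 3 of which were chosen after seeing the data (cells of 1500 to 4000 UMIs, without the shallow cluster 4, without shared barcodes). A minimum mean of 25 CPM gave 633 higher and 874 lower. A minimum of 1 CPM gave 2152 and 2259. Of the calls, 48.8% were higher as reported and 60.6% with totals without 4 gene groups. With the cluster mixture held equal, 999 were higher and 1473 lower, and the log2 ratios of Il34 (-0.25), Ppbp (0.67) and Sorbs2 (-0.36) took the other sign. That setting rests on 131 to 169 control cells in 3 clusters. Of 55 list medians, 37 kept their sign under all 13 settings and 18 did not. Thinned to 2000 UMIs, 43.2% of control and 8.78% of proton cells had Cirbp RNA. No paired analysis was possible because each group is 1 library, and for the same reason no replicate could be left out. Depth limits genes under 5 CPM, and the intervals cover counting error only.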

Other observations

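Genes of very long span were set apart after their values were seen. Among 215 genes of over 300 kb with a mean of at least 25 CPM, outside the excluded groups, 76 were higher in proton (35.3%) and 5 lower (2.33%), and the median log2 ratio was 0.46. In photon 6 were higher and 64 lower, the median being -0.43. The 6 genes named next were picked from the higher ones for their values and do not stand for the 215. Ptprg, a receptor phosphatase, was at 131 CPM in control against 128 in photon and 312 in proton. Gpc6, a glypican of the cell surface, was at 178, 216 and 474 CPM, and Adgrl3, an adhesion receptor, at 355, 388 and 831. Pcdh9, a protocadherin, was at 33.9, 38.3 and 94.6 CPM, and Exoc4, of the complex that tethers secretory vesicles, at 401, 445 and 1037. Camk1d, a calcium-dependent kinase, was at 88.7, 85.5 and 239 CPM.

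Chromatin regulators gave 2 higher and 2 lower of 62, with a median of 0.18 in proton and -0.35 in photon. The proton median was -0.03 with each ratio centred on genes of like span. Hypoxia targets gave 5 lower and none higher of 14, with a median of -0.44, and senescence and secreted factors 9 lower and 2 higher of 27. Epithelial transcription factors gave 4 higher (8.51%) and 5 lower (10.6%) of 47.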
